A study of Homo sapiens with 24 samples.

Results

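The genes described here are 44 genes of the endoplasmic reticulum (ER) stress response, the amino acid response and tRNA charging, chosen by name. They were followed over 2 days after HepaRG cells, a human liver progenitor line able to become hepatocyte-like or biliary-like, were replated. The hepatocyte-like cells came from cultures kept in medium with hydrocortisone and insulin, with DMSO added for the last weeks. They were lifted off by mild trypsin treatment and seeded sparsely, per the labels to induce reprogramming. RNA was taken at 0 h and at 7 later times, namely after 1 and 4 h, after 8, 12 and 16 h, and after 24 and 48 h, with 3 arrays at each. All groups are the same line with the same handling described, and the labels tell them apart by time alone. No group was left attached, so changes with time cannot be told apart from changes due to replating. The arrays of a time are numbered as replicates, but the labels do not say that they came from separate cultures, so the spread behind each p-value may be technical.

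Only probe sets annotated to 1 gene symbol were used, and 40 of the 44 genes had at least 1, with 59 probe sets in all. DNAJB11, SYVN1 and SESN2 had none on this array, and those of MARS1 also name another gene. VLDLR had 1 probe set, too dim to be tested. The remaining 39 genes were tested among 9966 genes. By role they were 15 of 16 ER chaperones and folding factors, 3 of 4 ER disposal genes, 3 unfolded protein sensors and effectors, 7 of 9 genes of the ATF4 group, and 11 of 12 cytosolic tRNA synthetases.

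Secreted proteins fold in the ER with the help of chaperones and disulfide isomerases, and misfolded ones are sent back to the cytosol for destruction. When unfolded proteins build up, the sensors IRE1 (gene ERN1), ATF6 and PERK act, IRE1 by splicing XBP1 mRNA and PERK by slowing translation while favouring that of ATF4. ATF4 is also raised by amino acid shortage through GCN2, and its targets include amino acid synthesis enzymes and many tRNA synthetases. Hepatocytes, which secrete most plasma proteins, have an abundant ER.

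Promoter elements known from these pathways are shown first, so that the genes holding each can be followed through the results. Elements and genes were both chosen from the same pathways, so the shares over all genes are not a test of enrichment. Promoters of 300 bases (250 before to 50 after the start) were read from RefSeq (GRCh38.p14) for 40 of the 44 genes. None was listed for LARS1, PDIA3, VARS1 or YARS1. The ER stress element (ERSE), searched on both strands as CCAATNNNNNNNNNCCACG, was present in promoters of 25 of 27305 genes (0.0916%). Among the genes described here 8 of 40 held it, namely 7 chaperones and XBP1. Capitals mark the fixed letters and lower case the 9-base spacer.
HSPA5: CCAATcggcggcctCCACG
HSP90B1: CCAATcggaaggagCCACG
CALR: CCAATgatggtcgaCCACG
CANX: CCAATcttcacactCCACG
PDIA6: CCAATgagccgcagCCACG
CRELD2: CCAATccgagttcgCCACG
ERO1B: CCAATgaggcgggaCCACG
XBP1: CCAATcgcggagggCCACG

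The HSPA5 match lay at chr9:125241391-125241409, 66 to 48 bases before the start on the gene's minus strand. Those of CALR, CRELD2 and ERO1B were on the strand opposite to the gene. HSP90B1 held a second match. The 140 bases before the HSPA5 start (chr9:125241344-125241483, minus strand), with the match in capitals, show its setting just before a tataa stretch.
HSPA5 promoter: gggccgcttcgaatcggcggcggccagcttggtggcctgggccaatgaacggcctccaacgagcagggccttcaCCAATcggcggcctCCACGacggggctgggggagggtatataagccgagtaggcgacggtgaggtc

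The shorter element ERSE-II, searched as ATTGGNCCACG, contains the same CCACG and, read on the other strand, the same CCAAT. It was found in 19 of the 27305 genes (0.0696%), and 3 of them are described here. The matches of HYOU1 and SDF2L1 were on the strand opposite to the gene, and HYOU1 held a second one there.
HERPUD1: ATTGGgCCACG
HYOU1: ATTGGaCCACG
SDF2L1: ATTGGtCCACG

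The core bound by ATF4 with a C/EBP partner, searched as TGATGNAA on both strands, is short and was found in 1217 of the 27305 genes (4.46%). It was present in 8 of 40 genes here, namely 6 of the 9 tRNA synthetases that had a promoter, HERPUD1, and 1 of the 9 genes of the ATF4 group (ASNS). The 6 bases on either side are shown in lower case. HERPUD1 thus held both kinds of element, at chr16:56932025-56932035 (ERSE-II) and chr16:56931966-56931973 (ATF4 core). Each sequence is printed in the direction of the motif. Only the ATF4 core matches of ASNS and NARS1 were on the gene's own strand. Those of TARS1 and NARS1 lay after the start, and that of MARS1 spanned it.
ASNS: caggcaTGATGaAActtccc
HERPUD1: acgggcTGATGcAAcccgcc
TARS1: accagcTGATGcAAtcgaaa
GARS1: ggagcaTGATGaAAtcgccg
IARS1: cggaggTGATGcAAcgcgct
AARS1: cttggcTGATGcAActgcga
MARS1: cctcgcTGATGcAAccggaa
NARS1: gctctcTGATGcAAcgccgg

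A match describes the letters in this window and not binding, and the arrays do not measure binding. None of the 15 chaperone promoters read held the ATF4 core (4.46% of all genes). None of the 9 tRNA synthetase promoters read held an ERSE (0.0916%) or ERSE-II (0.0696%). At these shares so few promoters would often hold none, so no separation of the groups can be read from this.

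Signals are linear MAS5 intensities, and changes are differences of log2(signal + 18) with their standard error (SE), which understates changes of dim genes. A gene was called higher or lower at a Benjamini-Hochberg adjusted p under 0.05 over all 9966 genes and at least a 2-fold difference by limma. "At adjusted p alone" means under 0.05 at any size of change. The median signal of an array lay between 100.0 and 142.3, with 130.6 to 142.3 at 0 h and 107.5 to 114.9 at 48 h. The 3'/5' ratio of the ACTB control probe sets is higher where RNA is degraded. It was 6.91 on 0 h replicate 2 and between 1.02 and 2.56 on the other 23 arrays, so counts are also given without that array. The other 0 h arrays, at 2.03 and 2.56, also lay above those of 48 h (1.02 to 1.27). Leaving out replicate 2 does not remove that difference. Its part in the changes against 0 h was not tested. Summed signals of 13 of 14 hepatocyte markers were 452487 to 492870 at 0 h, 202846 to 253297 at 24 h and 136693 to 158328 at 48 h, when all 13 were called lower. Those of 7 of 12 biliary markers were 14300 to 16522 at 0 h and 27902 to 33179 at 48 h, and those of 8 mesenchymal markers were 2014 to 2220 and 3844 to 4997. At 48 h, 2 of the 7 and 3 of the 8 were called higher, where 9.82% of all genes were. A sum mostly follows its brightest genes, such as KRT19 (mean 3357 at 0 h and 17545 at 4 h). ACTA2 rose by 1.17 at 48 h, but its other probe set gave -1.14. Only 2 of 6 blood and endothelial markers were tested, with sums of 217.2 to 854.4 on all arrays. The part of these shifts in the results below was not tested, and fewer cells of a type cannot be told apart from less RNA per cell.

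The 39 genes did not move as 1 block. Over the whole course 19 of 39 were called against 0 h at some time, 13 lower and 6 higher, where 40.8% of all genes were called at some time. Of all 9966 genes, 2392 were called lower and 1759 higher at some time. By limma's F-test over all times 35 of 39 differed, against 58.9% of all genes. The exceptions were DNAJC3, SDF2L1, SEC61B and ATF6. The genes called lower were 7 chaperones, 2 disposal genes, XBP1, ATF6, DDIT3 and EPRS1, and those called higher were ATF4, TRIB3, PSAT1, PPP1R15A, TARS1 and GARS1.

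At 1 h, 1 of 39 genes was called higher and 0 lower, where 2.22% and 0.602% of all genes were called. Without the cutoff on fold, 2 were higher and 3 lower (328 and 174 of all 9966 genes), and at an unadjusted p under 0.05 the counts were 2 and 8. The share of all genes at an unadjusted p was not counted at any time or step, so such counts have no background. At 4 h, 1 was higher and 5 lower (background 7.6% and 7.11%). At 8 h, 2 were higher and 4 lower (8.41% and 10.1%), and at 12 h 1 and 5 (8.72% and 10.6%). At 16 h none was called higher, although 7 were at an unadjusted p under 0.05, and 8 were lower (9.19% and 11.9%). At 24 h, 1 was higher and 9 lower (10.4% and 11.2%), and at 48 h 1 and 5 (9.82% and 11.7%). The counts farthest above their background were the 8 and 9 genes called lower at 16 h and 24 h, and with each array centred on its median these were 4 and 5. Centring also lowered the counts over all 9966 genes, from 1188 to 691 at 16 h and from 1119 to 766 at 24 h. Without 0 h replicate 2 the counts called higher, in order of time, were 1, 1, 3, 2, 0, 1 and 2, and those called lower 0, 4, 4, 6, 7, 9 and 4.

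**Figure D1:**
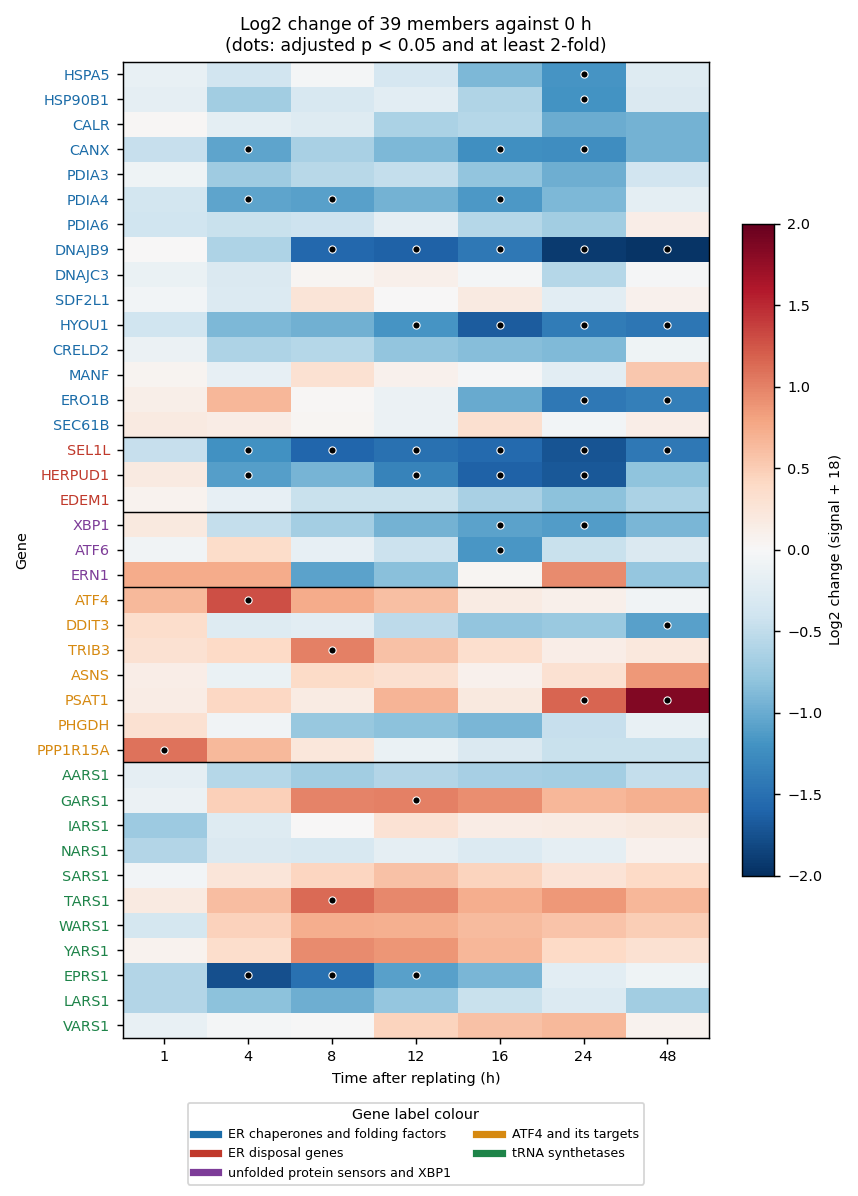
Log2 change against 0 h (colour) of the 39 tested genes (rows, grouped by role) at the 7 later times (columns); dots mark calls at adjusted p under 0.05 and at least 2-fold. At 24 h all 15 chaperone rows lie below 0, and at 16 h 13 of 15 do, with SEC61B at 0.33 above it. ATF4, PPP1R15A, GARS1, TARS1 and PSAT1 are reddest at 4, 1, 12, 8 and 48 h, in that order. At 24 h PPP1R15A lies below 0 (-0.44) and ATF4 close to it (0.11).

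The chaperones and folding factors were lowest at 24 h and closer to their starting level at 48 h. In order of time from 1 h to 48 h, their median log2 change was -0.12, -0.45, -0.32, -0.34, -0.79, -0.97 and -0.26. The median of all 9966 genes stayed between -0.16 and -0.09. At 24 h, 6 of 15 chaperones were called lower, where 11.2% of all genes were. None was higher even at adjusted p alone, where 1994 of all 9966 genes were. Lower at adjusted p alone were 11 of 15, where 19.1% of all genes were. That count was 10 or 11 when any single array at 0 h or 24 h was left out. With each array centred on its median, which lifts the median of all genes at 48 h from -0.12 to 0.14, the chaperone median was -0.76 at 24 h and 0.00 at 48 h.

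HSPA5 encodes BiP, the main ER Hsp70 chaperone and the brake on the unfolded protein sensors. Its signals were 9065, 12177 and 11248 at 0 h, 4429, 4711 and 5073 at 24 h, and 9968, 8874 and 8153 at 48 h. All 3 values at 24 h lay below all values at 0 h and at 48 h, and those of 0 h and 48 h overlapped. The log2 change at 24 h was -1.18 ± 0.16 (adjusted p = 3.8e-07), and -0.97, just short of 2-fold, with each array centred. At 8 h its mean was 10712 ± 2567 (SD, n = 3), and the values overlapped those of 0 h.

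HSP90B1 (GRP94), the ER member of the Hsp90 family, was lower at adjusted p alone already at 4 h (-0.69). It measured 6437, 5307 and 5519 at 0 h, 2802, 3232 and 1703 at 24 h, and 4601, 4893 and 4644 at 48 h, the last all below those of 0 h. The change at 24 h was -1.20 ± 0.17 (adjusted p = 3.6e-07), and -0.93 without the lowest array, 24 h replicate 3, or -0.98 with centred arrays, both under 2-fold. The names of the HSP90B1, CALR and PDIA6 probe sets end in _x_at, a mark of probes that may also bind similar transcripts.

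CANX and CALR encode calnexin and calreticulin, the lectin chaperones that hold glycoproteins during folding. CANX signals were 9773, 12375 and 9837 at 0 h and had fallen to 5230, 5357 and 4762 by 4 h (log2 change -1.05 ± 0.13, adjusted p = 1.4e-07). They were 3686, 4472 and 5405 at 24 h and 5207, 5296 and 5919 at 48 h. No value at a later time reached the lowest at 0 h, and the change was -1.24 ± 0.13 at 24 h and -0.95 ± 0.13 at 48 h. The 4 h call fell under 2-fold without 0 h replicate 2 (-0.94), without 4 h replicate 3 or with centred arrays (-0.92), and its other probe sets gave -0.85 and -0.66 at 4 h. CALR was lower at adjusted p alone at 12, 24 and 48 h, by -0.63, -0.99 and -0.94. Its other probe set not ending in _x_at had means of 142.0 at 24 h and 254.2 at 48 h, with a change of -0.29 at 48 h.

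The protein disulfide isomerases PDIA3, PDIA4 and PDIA6 make and rearrange disulfide bonds. PDIA4 fell early, from 5413, 5067 and 4811 at 0 h to 2460, 2380 and 2490 at 4 h, by -1.05 ± 0.17 (adjusted p = 9.4e-06), and was still called lower at 8 h and 16 h. At 48 h its signals were 4871, 3701 and 4869, and 2 of them lay within the 0 h range. Its other probe set moved less, by -0.61, -0.68 and -0.76 at these times, under 2-fold. With centred arrays the PDIA4 calls at 4, 8 and 16 h fell under 2-fold (-0.92, -0.92 and -0.87). They also did so with its probe sets averaged (-0.83, -0.89 and -0.95). PDIA3 was lower at adjusted p alone at every time from 4 h, most at 24 h (-0.97), where its signals were 4088, 3259 and 4931 against 7424 to 8840 at 0 h. PDIA6 was lower at adjusted p alone at 4, 8, 16 and 24 h, by at most -0.69.

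DNAJB9 and HYOU1 were still called lower at 48 h. DNAJB9 (ERdj4), a BiP cochaperone that also holds IRE1 inactive, measured 4151, 4019 and 3616 at 0 h and 3828, 4008 and 4051 at 1 h. It was 2548, 2676 and 2399 at 4 h, 1290, 1338 and 1316 at 8 h, and 842.4, 981.7 and 1204 at 48 h. The change was -1.56 ± 0.14 at 8 h and -1.95 ± 0.14 at 48 h (adjusted p = 3.1e-13), 3.87-fold, the largest fall from 0 h among the probe sets that stood for the 39 genes. Its other probe set gave -1.79 and -2.24.

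HYOU1 (GRP170), a large ER chaperone and nucleotide exchange factor of BiP, went from 2126, 2061 and 1343 at 0 h to 532.4, 646.8 and 507.5 at 16 h, and to 537.6, 705.7 and 731.7 at 48 h. It was called lower at 12, 16, 24 and 48 h, by -1.18, -1.66, -1.40 and -1.44 (SE 0.21). The 12 h call fell under 2-fold with centred arrays (-0.98) or without 12 h replicate 3 (-0.95). ERO1B, an oxidase that recharges the disulfide isomerases, was dim. Its signals were 119.8, 127.2 and 43.15 at 0 h and 4.64, 52.73 and 27.04 at 48 h, and these overlap. Its calls at 24 h (-1.44 ± 0.52, adjusted p = 0.026) and 48 h (-1.36 ± 0.52, adjusted p = 0.035) were lost under several alternatives.

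Among the other chaperones, CRELD2, an ER stress-induced folding factor, was lower at adjusted p alone from 4 h (-0.62) to 24 h (-0.88), with 3421, 3021 and 3196 at 0 h and 1675, 1870 and 1679 at 24 h. MANF, an ER protein that is also secreted, passed the test against 0 h only at 48 h, when it was higher at adjusted p alone (0.54 ± 0.16). DNAJC3, SDF2L1 and SEC61B passed no comparison with 0 h. The changes of SDF2L1 lay between -0.27 and 0.26 and those of SEC61B, a subunit of the translocation channel, between -0.11 and 0.33.

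Of the 3 ER disposal genes tested, SEL1L and HERPUD1 were called lower and EDEM1 was not. SEL1L and HERPUD1 both serve the HRD1 complex, which takes misfolded proteins back out of the ER. SEL1L signals were 3788, 4937 and 3724 at 0 h, 2830, 3129 and 3043 at 1 h, 1707, 1703 and 1902 at 4 h, and 1148, 1392 and 1172 at 24 h. It was called lower at every time from 4 h (-1.21 ± 0.15) to 48 h (-1.43 ± 0.15), with its lowest value at 24 h (-1.72). Its 3 other, dimmer probe sets gave -0.82, -0.90 and -0.74 at 24 h, and 1 of them gave 0.06 at 48 h.

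HERPUD1 first stayed level, with 3151, 3170 and 2988 at 0 h and 3966, 3305 and 3342 at 1 h. It then fell within 3 h to 1730, 1481 and 1158 at 4 h, by -1.28 ± 0.15 against 1 h (adjusted p = 4.7e-08). It reached 911.5, 798.5 and 1151 at 24 h (-1.70 ± 0.15 against 0 h) and was at 1715, 1850 and 1764 at 48 h. With centred arrays, or without 4 h replicate 3, its fall to 4 h against 0 h was -0.97 or -0.95, just under 2-fold. EDEM1, a lectin that marks glycoproteins for disposal, was lower at adjusted p alone at 16, 24 and 48 h, at most by -0.82 at 24 h.

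Of the sensors and their effectors, XBP1 gave the clearest course. XBP1, whose spliced mRNA encodes a driver of ER growth, measured 3191, 2677 and 2982 at 0 h, 3487, 3106 and 3509 at 1 h, 1307, 1470 and 1425 at 16 h, and 1226, 1545 and 1977 at 48 h. It was called lower at 16 h (-1.06 ± 0.17) and 24 h (-1.12 ± 0.17, adjusted p = 1.3e-06), and was lower at adjusted p alone at 4, 8, 12 and 48 h. With centred arrays both calls fell under 2-fold (-0.79 and -0.91). These probe sets do not tell spliced from unspliced XBP1 mRNA.

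ATF6 was called lower at 16 h alone, where 313.1, 164.9 and 49.79 overlapped the 265.3, 523.2 and 279.0 of 0 h. That call was lost without 0 h replicate 2 (-0.86) and without 16 h replicate 3 (-0.54). ERN1 was dim and scattered, with 116.3, 67.10 and 12.35 at 0 h, 89.96, 132.5 and 82.89 at 4 h, 13.43, 9.86 and 25.36 at 8 h, and 116.7, 149.3 and 93.39 at 24 h. Against 0 h it was not called at any time, but without 0 h replicate 3 it was called lower at 8, 12 and 48 h (-1.67, -1.45 and -1.38) and without 0 h replicate 1 higher at 24 h (1.42). It fell from 4 h to 8 h by -1.81 ± 0.51 (adjusted p = 0.017), where 1.94% of all genes were called lower. That call was lost when 73.8 was added in place of 18 (-0.96). It was also lost on leaving out 4 h replicate 2 (-1.63), 8 h replicate 1 (-1.76) or 8 h replicate 2 (-1.67).

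**Figure D2:**
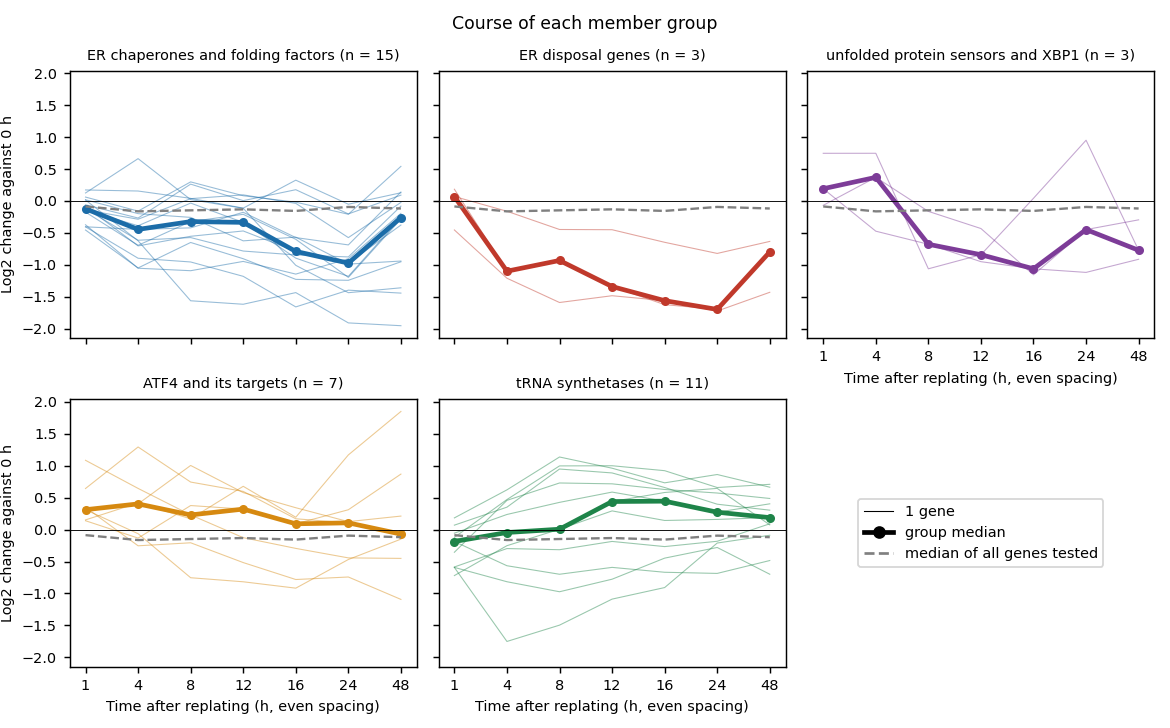
Log2 change against 0 h over time (h, evenly spaced) in 5 panels, 1 for each role; thin lines are genes, thick lines the group median and the dashed grey line the median of all 9966 genes. The chaperone median reaches -0.97 and the disposal median -1.70 at 24 h, while the tRNA synthetase lines spread over both sides of 0.

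The genes of the ATF4 group were highest at different times. Its median log2 change lay between -0.07 and 0.40. At some time 5 of its 7 tested genes were called, where 40.8% of all genes were. Of these 4 were higher and 1 lower, where 1759 and 2392 of all 9966 genes were. ATF4, the transcription factor at its head, measured 3339, 2966 and 3810 at 0 h, 5027, 6042 and 4768 at 1 h, and 8915, 7783 and 8100 at 4 h. It then came down to 4820, 6764 and 5483 at 8 h and 2955, 3118 and 3536 at 48 h. The rise at 4 h was 1.29 ± 0.13 (adjusted p = 3e-09), 2.45-fold, with all values above those of 0 h. The step from 4 h to 8 h was -0.55 ± 0.13 at adjusted p alone (0.0064). ATF4 is controlled to a large part in translation, which arrays do not measure.

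DDIT3, PHGDH and PPP1R15A had their highest mean at 1 h, and of the group PPP1R15A alone was called then. PPP1R15A (GADD34) brings the phosphatase that ends the PERK and GCN2 signal. Its signals were 199.2, 306.2 and 197.2 at 0 h, 479.4, 538.9 and 504.9 at 1 h, and 164.3, 160.5 and 167.3 at 24 h. The change at 1 h was 1.09 ± 0.25 (adjusted p = 0.0045), and 1.77 for its other probe set, which was also at -1.22 at 48 h where the main one was at -0.45. The 1 h call was lost without 0 h replicate 1 (0.99) or 0 h replicate 3 (0.98).

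TRIB3, a pseudokinase that restrains ATF4, was highest at 8 h, with 1613, 1120 and 1324 against 607.7, 744.2 and 628.1 at 0 h. The values did not overlap, and the change, 1.00 ± 0.16 (adjusted p = 6.1e-06), sat at the 2-fold line. Leaving out 0 h replicate 1, 0 h replicate 3 or 8 h replicate 1 put it under that line (0.95, 0.97 and 0.87). DDIT3 (CHOP), which promotes cell death under prolonged ER stress, was not called higher at any time. It measured 291.6, 258.6 and 336.1 at 0 h, 454.1, 394.5 and 304.3 at 1 h, and 137.7, 149.2 and 102.0 at 48 h, when it was called lower (-1.09 ± 0.26, adjusted p = 0.00096). That call fell under 2-fold with 73.8 added in place of 18 (-0.86), quantile normalization (-0.93), centred arrays (-0.83) or without 48 h replicate 3 (-0.95).

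The 3 amino acid synthesis genes differed in course, and PSAT1 was the one called. PSAT1, an aminotransferase of serine synthesis, measured 277.3, 230.9 and 351.4 at 0 h, 577.4, 596.2 and 827.9 at 24 h, and 1327, 871.9 and 1046 at 48 h. It rose by 1.17 ± 0.28 at 24 h (adjusted p = 0.00083) and by 1.85 ± 0.28 at 48 h (adjusted p = 1.5e-06), 3.61-fold, the largest rise from 0 h among them. PHGDH, which catalyses the step before it, was lower at adjusted p alone from 8 h to 24 h. Its signals were 487.7, 580.5 and 543.1 at the start and 212.7, 293.5 and 333.1 after 16 h (-0.92 ± 0.19), and those after 48 h were 504.1, 464.6 and 476.4. ASNS, asparagine synthetase, was higher at adjusted p alone at 48 h (0.87 ± 0.20), with 616.5, 616.8 and 829.6 against 281.9, 475.4 and 360.0 at 0 h. The ASNS match to the ATF4 core lay at chr7:97872469-97872476, inside the 100 bases before its start (chr7:97872409-97872508, minus strand).
ASNS promoter: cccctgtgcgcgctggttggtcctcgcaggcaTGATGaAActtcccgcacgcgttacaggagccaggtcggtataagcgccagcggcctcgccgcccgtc

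**Figure D3:**
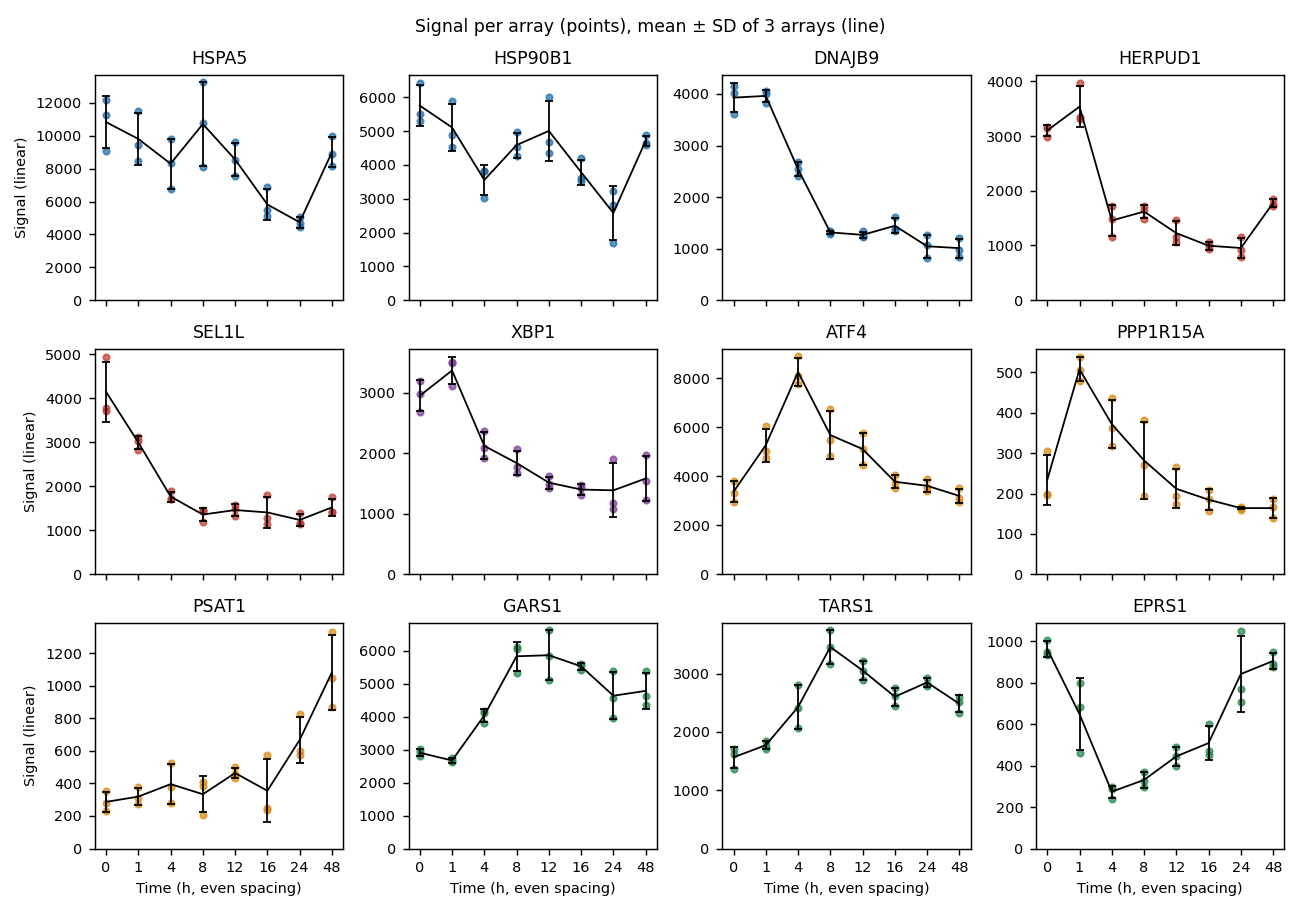
Linear signal of each array (points) at 8 times (h, evenly spaced) for 12 genes, with a line through the mean and bars of 1 SD (n = 3). ATF4 peaks at 4 h (7783 to 8915) and PPP1R15A at 1 h, DNAJB9 and SEL1L stay low to 48 h, HSPA5 and HERPUD1 climb again from 24 h to 48 h, and EPRS1 dips at 4 h.

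The tRNA synthetases, which load each amino acid onto its tRNA, moved in both directions or not at all. At 8 h, 5 of 11 were higher at adjusted p alone (background 16%) and 3 of 11 lower (background 20.8%), and the group median was 0.01. The higher ones were GARS1, SARS1, TARS1, WARS1 and YARS1, and the lower ones AARS1, EPRS1 and LARS1, a share near the background. IARS1 (0.01), VARS1 (-0.00) and NARS1 (-0.31) passed in neither direction. Over all 39 genes the counts at 8 h were 7 and 14. From 4 h to 48 h the group median was, in order, -0.05, 0.01, 0.44, 0.45, 0.27 and 0.19, and its sign at 4 h turned with quantile normalization (0.02) or centring (0.09). The median of all genes was -0.13 at 12 h and -0.16 at 16 h. Higher and lower at adjusted p alone were 5 and 3 of 11 at 12 h, 6 and 2 at 16 h, 5 and 1 at 24 h, and 4 and 2 at 48 h. Of all 9966 genes, 1710 and 2021, 1816 and 2099, 1994 and 1903, and 1957 and 1935 were.

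TARS1 (threonine) rose from 1366, 1703 and 1626 at 0 h to 2804, 2062 and 2418 at 4 h and 3453, 3169 and 3752 at 8 h. The change at 8 h was 1.14 ± 0.12 (adjusted p = 5e-09), 2.20-fold. It stayed higher at adjusted p alone to 48 h (0.66), with all later values from 4 h above those of 0 h. GARS1 (glycine) went from 2793, 3009 and 2918 at 0 h to 6067, 5318 and 6109 at 8 h and 6642, 5121 and 5828 at 12 h. It was called at 12 h (1.00 ± 0.12, adjusted p = 5.3e-08) and stood at the same size at 8 h just under the 2-fold line. Without 0 h replicate 1 or 12 h replicate 1 the 12 h change was 0.97 or 0.91. YARS1 (tyrosine) reached 1261, 1350 and 1524 at 8 h from 763.5, 597.9 and 760.5 at 0 h (0.95 ± 0.15, adjusted p = 3e-06). WARS1 (tryptophan) was at 0.73 and SARS1 (serine) at 0.43 at 8 h, both at adjusted p alone.

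EPRS1, which carries the glutamate and proline enzymes in a single protein, dipped early and came back. It measured 933.9, 1005 and 949.3 at 0 h, 461.2, 799.9 and 683.2 at 1 h, 240.3, 296.4 and 285.8 at 4 h, 488.5, 398.2 and 446.9 at 12 h, and 876.5, 889.6 and 947.9 at 48 h. The change was -1.75 ± 0.19 at 4 h (adjusted p = 5.4e-09), 3.37-fold, and -0.09 at 48 h. Of its other probe sets, 1 gave -1.11 at 4 h and 0.25 at 48 h, and a dim one -2.11 and 0.01. LARS1 (leucine), read by an _x_at probe set, was lower at adjusted p alone at 4, 8, 12 and 48 h, and AARS1 (alanine) from 4 h to 48 h, by at most -0.97 and -0.70. IARS1 (isoleucine) and NARS1 (asparagine) were lower at 1 h alone, by -0.72 and -0.59 at adjusted p alone. VARS1 (valine) was higher at adjusted p alone at 16 h and 24 h (0.58 and 0.65), but its other, dim probe set gave -1.23 and -0.63.

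The ATF4 core and these directions did not line up one to one. Among synthetases that held it, TARS1 and GARS1 were called higher, AARS1 was lower at adjusted p alone, and IARS1 and NARS1 were lower at 1 h alone. EPRS1, SARS1 and WARS1 held no match in this window, and SARS1 and WARS1 were higher at adjusted p alone.

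From 1 h to 4 h, HERPUD1 and EPRS1 were called lower (background 4.45%) and 10 of 39 genes were lower at adjusted p alone (background 12.7%). Those 10 were CANX, CRELD2, DNAJB9, EPRS1, HERPUD1, HSP90B1, PDIA3, PDIA4, SEL1L and XBP1. Higher at adjusted p alone were 5 of 39, where 1276 of all 9966 genes were. These were 4 tRNA synthetases and 1 gene of the ATF4 group. The synthetase median in this step was 0.29 and that of all genes -0.09. The EPRS1 step was -1.16 ± 0.19, and -0.99, under 2-fold, without 1 h replicate 2. No gene of the 39 was called from 8 h to 12 h, 12 h to 16 h, 16 h to 24 h or 24 h to 48 h. In those steps 0.482%, 0.241%, 1.31% and 1.19% of all genes were called in either direction by limma. At an unadjusted p under 0.05 the 39 genes gave 4, 8, 7 and 13 in these steps, with no count over all genes to set beside them.

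From 24 h to 48 h the changes of genes passing the test were under 2-fold. At adjusted p alone 8 of 39 genes were higher and 0 lower, where 1.35% of all genes were higher. They were 7 of the 15 chaperones and HERPUD1. The log2 changes were 0.92 ± 0.16 for HSPA5 (adjusted p = 0.00031), 0.92 ± 0.17 for HSP90B1, 0.83 for PDIA6, 0.80 for CRELD2, 0.75 for MANF, 0.71 for PDIA4, 0.60 for PDIA3 and 0.90 ± 0.15 for HERPUD1 (adjusted p = 0.00013). In each of the 8 all 3 signals at 48 h lay above all 3 at 24 h. The median of the chaperones was 0.55 and that of all genes -0.02. These genes did not share a starting point: MANF was not lower at 24 h (-0.21, not passing the test), and its 48 h level lay above its start, while HERPUD1 was still lower than at 0 h at adjusted p alone (-0.80).

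The count of 7 chaperones lay between 5 and 7 when any array of these times was left out, and was 7 with quantile normalization or centring. It was 5 where probe sets with other name endings were preferred, since the other probe set of PDIA4 had means of 1261 at 24 h and 1459 at 48 h, and that of PDIA6 also moved less. The other probe set of HSP90B1, also an _x_at one, had means of 250.8 and 290.7. The summed hepatocyte markers lay lower at 48 h than at 24 h on every array. Median summed signals at 24 h and 48 h were 3906 and 4628 for the mesenchymal markers and 28906 and 31950 for the biliary ones. Their part in these changes was not tested. Of the 8 genes higher at 48 h than at 24 h, HSPA5, HSP90B1, PDIA6 and CRELD2 held an ERSE and HERPUD1 an ERSE-II. PDIA4 and MANF held neither, and for PDIA3 no promoter was listed. XBP1, CANX, CALR, ERO1B, HYOU1 and SDF2L1 held a match and were not higher at adjusted p alone.

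**Figure D4:**
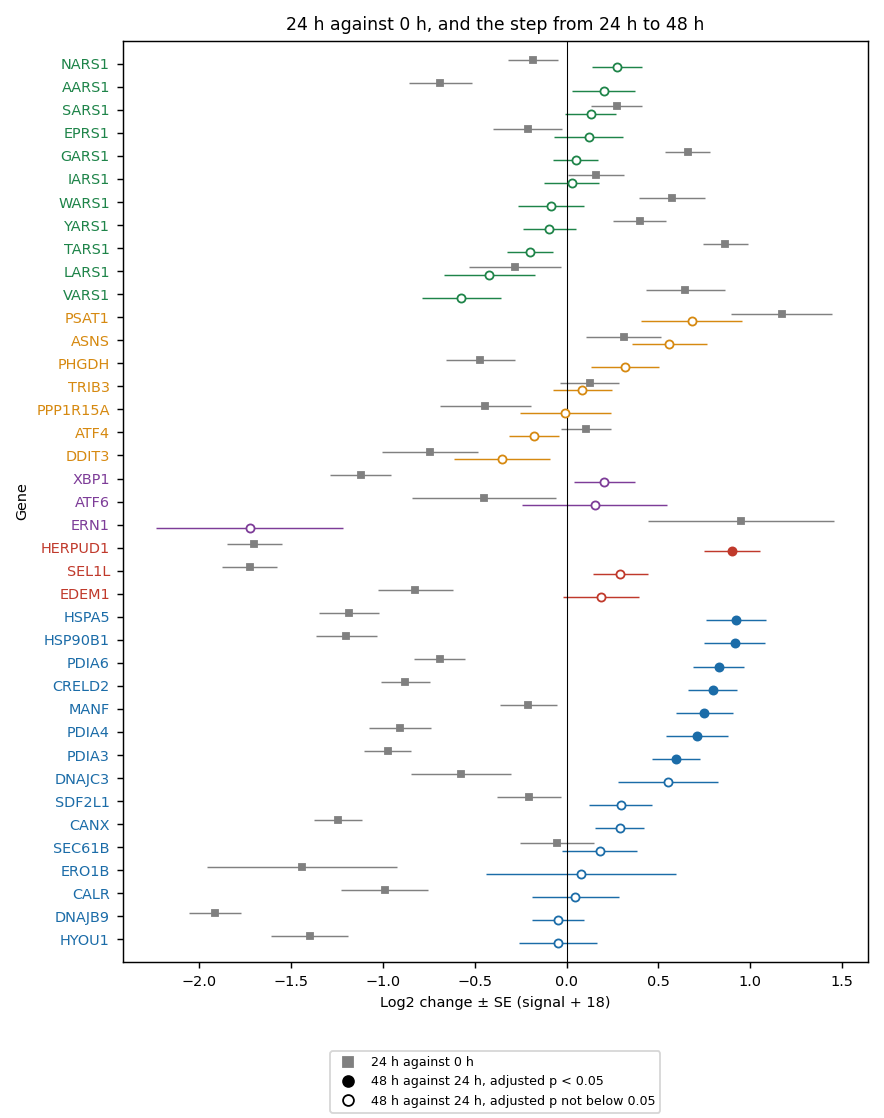
Log2 change ± SE of 24 h against 0 h (grey squares) and of 48 h against 24 h (circles, filled at adjusted p under 0.05) for the 39 genes, ordered within each role. The 8 filled circles, between 0.60 and 0.92, belong to 7 chaperones and HERPUD1, while DNAJB9 and HYOU1 stay near 0 in this step.

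From 8 h to 48 h, PSAT1 (1.68 ± 0.28) and EPRS1 (1.41 ± 0.19) were called higher and the dim ERO1B lower (-1.38 ± 0.52, adjusted p = 0.046), where 6.26% and 6.09% of all genes were. At adjusted p alone 7 of 39 genes were higher and 9 lower, where 1426 and 1197 of all 9966 genes were. Of the chaperones 3 were higher and 3 lower, of the ATF4 group 2 and 4, and of the synthetases 2 and 2. Among the lower genes were ATF4 (-0.82) and TRIB3 (-0.79), and YARS1 (-0.64) and TARS1 (-0.47) of the synthetases.

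Other genes of the same pathways, taken from lists that hold none of the 44, were also counted. At 24 h, 5 of 38 other ER folding and export genes were called lower and 0 higher (background 11.2% and 10.4%), the first near its background, and their median was -0.10, close to that of all genes. At 48 h, 2 were higher and 5 lower (background 9.82% and 11.7%). KDELR3, a receptor that returns escaped ER proteins, rose by 1.49 ± 0.23 at 48 h, from 563.9 ± 203 to 1611 ± 472 (SD, n = 3). SEC24D, a coat subunit of ER export vesicles, fell by 1.39 and LMAN1, a cargo receptor for glycoproteins, fell by 1.36. Among 18 other disposal genes at 24 h, 1 was higher and 1 lower (background 10.4% and 11.2%). UFD1, a partner of the p97 segregase, rose by 1.37 ± 0.14, and OS9, a lectin of the HRD1 complex read by an _x_at probe set, fell by 1.11.

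Of 13 other sensors and transcription factors at 8 h, 1 was called higher and 2 lower (background 8.41% and 10.1%). EIF2S1, the translation factor subunit that PERK and GCN2 phosphorylate, rose by 1.36 ± 0.13, from 1949 ± 213 to 5024 ± 244 (SD, n = 3), with 0.60 and 0.95 for its other probe sets. EIF2AK2 (PKR), another kinase of that subunit, fell by 1.36, with -0.88 for its other probe set, and ATF6B fell by 1.53, although its other probe set gave 0.10. Among 31 other amino acid response genes at 24 h, 4 were higher and 6 lower (background 10.4% and 11.2%). CTH, which makes cysteine from cystathionine, fell by 3.33 ± 0.23, from 1866 ± 231 to 169.9 ± 31.1 (SD, n = 3). SLC7A1, a transporter of cationic amino acids, rose by 2.38 ± 0.23, with 0.02 and 1.59 for its other probe sets, and KDM7A fell by 2.24.

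Of 6 other cytosolic synthetases and partners tested at 8 h, 1 was higher, FARSA, a subunit of the phenylalanine enzyme, by 1.23 ± 0.21 (0.56 for its other probe set), where the background was 8.41%. Their median was 0.57 at 8 h and 0.66 at 12 h, against -0.15 and -0.13 over all genes. Of 9 mitochondrial synthetases, which serve translation inside mitochondria, WARS2 alone was called higher at 8 h (1.56 ± 0.31), and their median was -0.05.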

How the data were processed

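Total RNA of 24 HepaRG samples was measured on a 1-colour Affymetrix human array with 22215 probe sets besides controls. The deposited values are linear intensities made with MAS5, per the submitters' processing notes. The MAS5 settings are not given in the sources used. Probe sets entered as log2(signal + 18), the 20th percentile of all signals, with no further normalization. The filter kept the 17122 probe sets above the 40th percentile of 3 arrays or more, and the brightest of those naming a gene alone stood for that gene (9966 genes). The fits used limma 3.58.1 under R 4.3.3 (lmFit, eBayes with trend, 16 residual degrees of freedom) over all arrays, and p-values were two-sided and Benjamini-Hochberg adjusted over all genes. The script was tested on simulated data. Contrasts were the 7 later times against 0 h, the 6 steps from 1 h, and 48 h against 8 h. The number of arrays limits the precision. No 2 arrays held identical values. Plots used matplotlib 3.10.9 (Python 3.11.15).

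Groups are the labelled times. Same-numbered replicates did not pair: correlations of their deviations from the group means ran from -0.067 to 0.065. The genes and lists were chosen with earlier results of these data known. Genes called against 0 h, and those with the largest and smallest changes of each role, were described with their values; from each list of other genes up to 3 called genes with the largest change were named. Other probe sets are given where they differ by over 1 in log2 change or in the sign of a called change, and for some other genes. Alternatives were no or a larger pseudocount (73.8), quantile normalization, median centring, no or a stricter filter, other probe set choices, the replicate block, no trend, only the compared groups, no cutoff on fold, and leaving out each array.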

Additional observations from a re-analysis of the deposited data

How the results depend on the processing

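Of 49 calls of single genes, 26 were kept under every alternative and 0 reversed. Counts of the 39 genes called moved by over 1.5 times as follows, and the cause was not tested except where the alternative itself drops the cutoff on fold. With no cutoff on fold the higher and lower counts against 0 h were 2 and 3 at 1 h, 5 and 14 at 4 h, 7 and 14 at 8 h, 7 and 14 at 12 h, 6 and 18 at 16 h, 6 and 18 at 24 h, and 7 and 13 at 48 h. They were 5 and 10 from 1 h to 4 h, 6 and 4 from 4 h to 8 h, 2 and 1 from 16 h to 24 h, 8 higher from 24 h to 48 h, and 7 and 9 from 8 h to 48 h. Median centring gave 2, 3, 4, 5 and 3 lower at 4, 12, 16, 24 and 48 h, and 4, 3, 2, 2 and 2 higher at 8, 12, 16, 24 and 48 h. The larger pseudocount gave 0, 1 and 0 higher at 1, 8 and 12 h, 3 lower at 48 h and 0 lower from 4 h to 8 h. Quantile normalization gave 0 higher at 12 h. Averaging the probe sets of a gene gave 3 lower at 4 h, 1 lower from 1 h to 4 h, 2 from 4 h to 8 h, 1 from 24 h to 48 h and 2 from 8 h to 48 h. From 4 h to 8 h the stricter filter gave 0 lower, and preferring probe sets not ending in _x_at or _s_at gave 2. Without the trend 1 was lower from 24 h to 48 h.

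The single lower call from 8 h to 48 h, of the dim ERO1B, became 0 with the larger pseudocount, quantile normalization, median centring, no filter, the stricter filter, no trend, only the compared groups, and the replicate number as a block; the replicate block moved no other count by over 1.5 times. Leaving out 1 array in turn gave 0 to 1 higher at 1 h, 3 to 7 lower at 4 h (3 without 4 h replicate 3), 4 to 7 lower at 8 h (7 without 0 h replicate 3), 0 to 2 higher at 12 h (2 without 0 h replicate 2), 1 to 2 higher at 24 h and 1 to 2 at 48 h. It gave 1 to 2 lower from 1 h to 4 h, 0 to 1 lower from 4 h to 8 h, 0 to 1 higher from 16 h to 24 h, 0 to 1 higher and 0 to 1 lower from 24 h to 48 h, and 0 to 1 lower from 8 h to 48 h. The signals of ERO1B and ERN1 lie near background, which limits their values.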
